A study of Mus musculus with 12 samples.

Results

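The transcripts of 10 circadian clock genes were examined in left ventricular muscle of mouse hearts. They were taken as the rows of the deposited expression table whose NCBI Gene identifiers belong to Arntl (also called Bmal1), Npas2, Clock, Per1, Per2, Per3, Nr1d1, Nr1d2, Dbp and Tef, and all 10 were found among 18079 genes. By the labels all mice were C57BL/6 (C57BL/6J males in the study's methods), operated at 8 weeks of age and killed 4 weeks later, at 12 weeks, where the methods give a range of ages that begins with 8 weeks. There were 3 mice in each of 4 groups. The Sham mice received DMSO (DMSO+Sham) or hispidulin (Hispidulin+Sham), and so did the banded mice (DMSO+AB and Hispidulin+AB), where AB is aortic banding, an operation that narrows the aorta and loads the heart with pressure, and Sham is the same procedure without the band. Hispidulin, a plant flavonoid, was injected intraperitoneally at 20 mg/kg/day from 1 day ahead of the operation, for 4 weeks after it, and the other mice received DMSO, its solvent. Each library came from a different animal, so the replicates are separate mice. The hour at which the hearts were collected is not given in the sources used here. The members were chosen by name with their FPKM in these same 12 libraries known, in particular the opposite levels of Arntl and Dbp, so their values and estimates are given as a description. No p-value of a member is printed, and counts of members past a threshold stand only beside the same share of all genes, with nothing read from them.

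The circadian clock is a loop of transcription factors that runs in nearly every cell, cardiomyocytes included, and repeats once a day. BMAL1, the product of Arntl, pairs with CLOCK or its relative NPAS2 and activates genes with E-boxes in their regulatory DNA, among them the Period (Per) and Cryptochrome (Cry) repressors, the nuclear receptors Nr1d1 and Nr1d2 (REV-ERB alpha and beta) and the PAR bZIP factors Dbp, Tef and Hlf. The Period and Cryptochrome proteins shut off their own activators, the REV-ERBs repress Arntl, Npas2 and Clock, and the PAR bZIP factors act through D-boxes, which the repressor NFIL3 also binds. In mouse tissues Arntl and Dbp messenger RNA therefore peak at opposite times of day, and their ratio is used as a marker of clock phase. In the heart the clock is known for its control of metabolic genes and of ion channels.

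The DNA words on which this loop runs are shown for the members whose promoters hold one. Windows of 250 bases ahead of a transcription start (RefSeq, GRCm38.p6) were searched on both strands for the E-box CACGTG, its variant CACGTT, the D-box TTATGTAA and its palindrome TTACGTAA, the REV-ERB core sequences TAGGTCA and TGGGTCA, and the cyclic AMP response element TGACGTCA. Windows were found for 9 of the 10 members, not for Per2. The motifs are in capitals in the stretches below, which run 5′ to 3′ along the gene's strand.
Per3 (chr4:151044806-151044885, minus strand): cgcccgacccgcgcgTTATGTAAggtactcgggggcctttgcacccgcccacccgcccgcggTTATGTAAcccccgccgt
Per1 (chr11:69098759-69098818, plus strand): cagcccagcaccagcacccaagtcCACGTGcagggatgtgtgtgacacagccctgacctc
Tef (chr15:81811249-81811308, plus strand): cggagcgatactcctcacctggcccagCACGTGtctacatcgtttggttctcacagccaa
Nr1d1 (chr11:98775378-98775437, minus strand): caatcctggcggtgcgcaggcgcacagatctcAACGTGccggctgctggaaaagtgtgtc
Ciart (chr3:95882259-95882358, minus strand): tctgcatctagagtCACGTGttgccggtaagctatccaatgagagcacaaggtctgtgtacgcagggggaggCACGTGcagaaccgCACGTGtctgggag
Per3 held the D-box at 205 and at 158 bases ahead of its start site, and 0.819% of all 32851 windows held it. The E-box was found in 6.02% of all windows and, among the members, in those of Per1 and Tef. The Nr1d1 window held CACGTT on the opposite strand, a word found in 3.85% of all windows. Ciart, which is not a member and encodes a repressor of CLOCK and BMAL1, is printed because its level ran opposite to the Arntl minus Dbp difference described further on, and it held the E-box at 116, 58 and 44 bases ahead of its start. The stretches of Per3, Nr1d1 and Ciart lie outside all GENCODE transcripts of these genes, and those of Per1 and Tef lie in introns of transcripts that start further upstream. None of these words was found in the windows of Arntl, Npas2, Clock, Nr1d2 or Dbp. A match is a description of the sequence and not evidence of binding, and the absence of a match says only that the letters are not in the window.

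The values are FPKM, reads scaled by transcript length and by the library's mapped reads, so levels can be compared between genes. The sequencing depth cannot be recovered from them, and no counting error can be given. FPKM summed to 535235 to 567027 in each mouse. The cardiomyocyte markers Myh6, Tnnt2 and Ryr2 summed to 8314 to 12402 FPKM and the ventricular markers Myl2 and Myl3 to 17780 to 25275, so the defining markers of the labelled tissue were present in every mouse. DMSO+Sham mouse 3 had the lowest ventricular sum, 17780 against 20458 to 25275 in the other 11 mice, the lowest sum of the smooth muscle markers Myh11 and Tagln, 21.4 against 25.3 to 46.2, and the highest sum of the macrophage markers Csf1r, Cd68 and Adgre1, 34.1 against 19.8 to 28.8. Of the smooth muscle and macrophage markers only Tagln and Adgre1 lay outside the range of the other mice, and Myh11, Csf1r and Cd68 lay inside it. The part of these cells in its clock values was not tested. The atrial markers Myl7, Myl4 and Sln summed to 774 FPKM in Hispidulin+Sham mouse 3, 172 in DMSO+AB mouse 2 and 91.0 in Hispidulin+AB mouse 3, against 2.53 to 40.0 in the others, and their part in the results was not tested. These are whole pieces of muscle, in which fewer cells of a type and less RNA per cell cannot be told apart. DMSO+Sham mouse 3 and DMSO+AB mouse 3 stood apart from the other libraries, being the highest or lowest of the 12 mice for 35.4% and 37.4% of the 11664 genes that passed the filter on low values (1 FPKM or more in 3 or more libraries), against 3.88% to 23.4% for the other 10 mice. Results that rest on DMSO+Sham mouse 3 are given with and without it.

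Among the clock transcripts, the values of DMSO+Sham mouse 3 stood farthest from the rest. This mouse was the highest or the lowest of the 12 for 8 of the 10 members, against the 35.4% of all tested genes given above. It was highest for Arntl, Npas2, Clock and Per1 and lowest for Per2, Per3, Dbp and Tef, and it lay inside the range of the others for Nr1d1 and Nr1d2. DMSO+AB mouse 3, which was at an extreme for a slightly larger share of all genes, was so for 4 members, being highest for Nr1d1 and Dbp and lowest for Clock and Nr1d2. Hispidulin+Sham mouse 2 was at an extreme for 5 members (highest for Per2, Per3 and Tef, lowest for Arntl and Nr1d1), against 11.2% of all tested genes. The other extremes were single genes, Nr1d2 highest in Hispidulin+Sham mouse 3 (14.6% of tested genes), Npas2 lowest in Hispidulin+Sham mouse 1 (9.04%) and Per1 lowest in DMSO+AB mouse 2 (23.4%), and the remaining 6 mice held none (16.5% and 17.5% of tested genes in DMSO+Sham mice 1 and 2, 14.7% in DMSO+AB mouse 1, and 6.1%, 3.88% and 8.2% in Hispidulin+AB mice 1, 2 and 3).

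**Figure D1:**
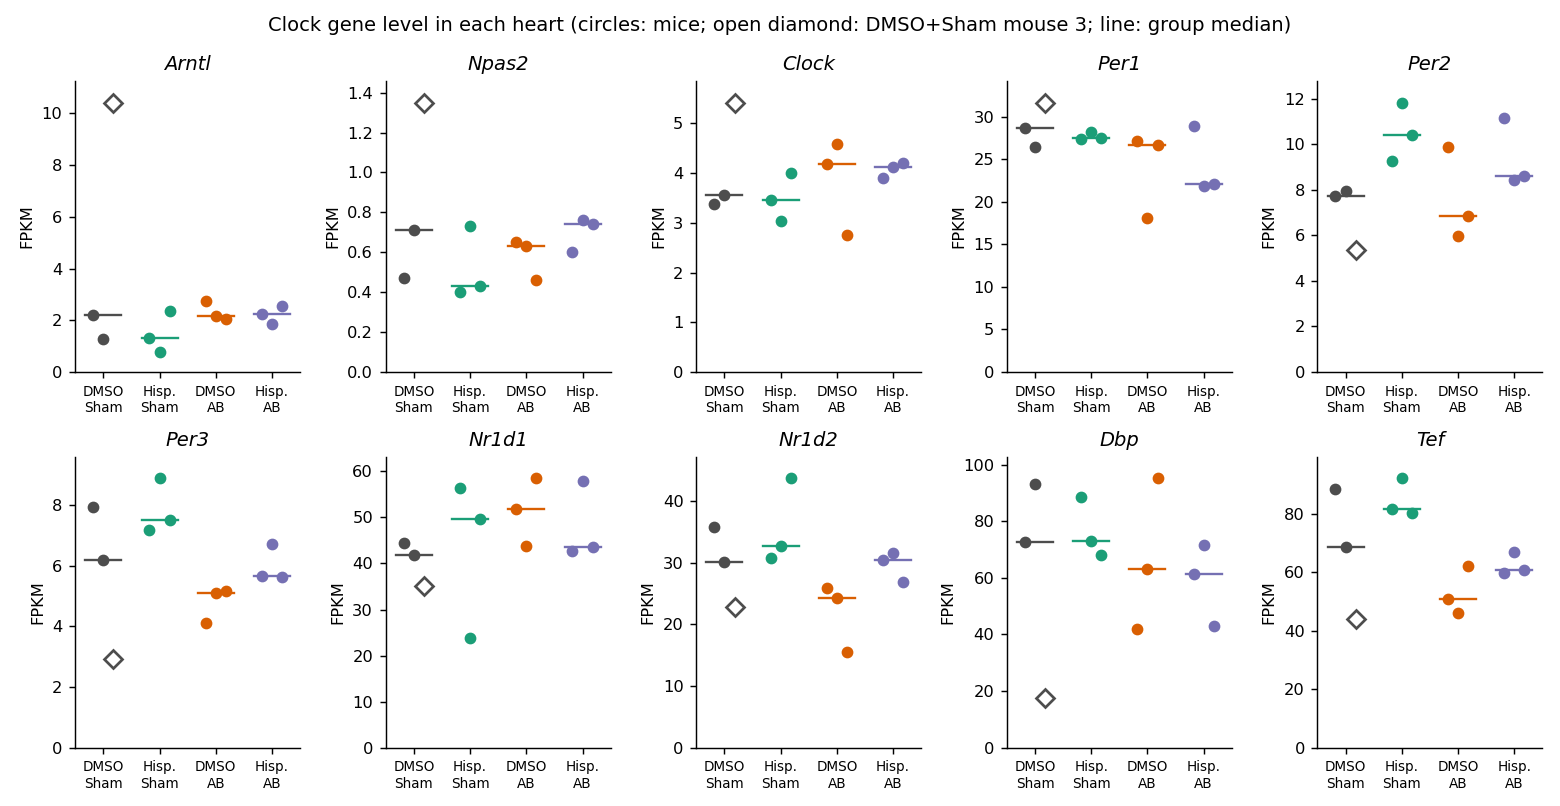
FPKM of each of the 10 clock genes (vertical axes, starting at 0) in the 4 groups (horizontal axes), with 1 point per mouse and a line at the group median. The open diamond is DMSO+Sham mouse 3, which lies above the other 11 mice for Arntl, Npas2, Clock and Per1 and below them for Per2, Per3, Dbp and Tef.

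The activators were expressed at low levels. Arntl was at 2.2, 1.26 and 10.4 FPKM in the DMSO+Sham mice, 1.31, 0.78 and 2.36 in the Hispidulin+Sham mice, 2.76, 2.18 and 2.05 in the DMSO+AB mice, and 2.25, 1.86 and 2.56 in the Hispidulin+AB mice. DMSO+Sham mouse 3 was thus 4.78 times the median of the other 11 mice, which spanned 0.78 to 2.76, and all 4 groups overlapped. Clock was at 3.39, 3.57 and 5.42 FPKM in DMSO+Sham, 3.47, 3.04 and 4.00 in Hispidulin+Sham, 4.18, 4.59 and 2.75 in DMSO+AB, and 3.90, 4.12 and 4.21 in Hispidulin+AB. Its level moved far less, with the highest mouse at 1.97 times the lowest. Npas2, the partner that can stand in for CLOCK, was at 0.47, 0.71 and 1.35 FPKM in DMSO+Sham, 0.40, 0.73 and 0.43 in Hispidulin+Sham, 0.65, 0.63 and 0.46 in DMSO+AB, and 0.60, 0.76 and 0.74 in Hispidulin+AB. It reached 1 FPKM in DMSO+Sham mouse 3 alone, so it did not pass the filter on low values and entered no group comparison. The other 9 members passed.

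The Period genes encode the repressors of the loop. Per1 was at 28.7, 26.5 and 31.7 FPKM in DMSO+Sham, 27.3, 28.2 and 27.5 in Hispidulin+Sham, 27.1, 18.1 and 26.7 in DMSO+AB, and 28.9, 21.9 and 22.1 in Hispidulin+AB. Its lowest 3 values were all in AB mice, but both AB groups also reached the Sham range. Per2 was at 7.73, 7.94 and 5.36 FPKM in DMSO+Sham, 9.27, 11.8 and 10.4 in Hispidulin+Sham, 9.87, 5.99 and 6.83 in DMSO+AB, and 11.2, 8.44 and 8.60 in Hispidulin+AB. All 3 Hispidulin+Sham mice lay above all 3 DMSO+Sham mice. Per3 was at 7.95, 6.21 and 2.94 FPKM in DMSO+Sham, 7.17, 8.89 and 7.52 in Hispidulin+Sham, 4.10, 5.12 and 5.18 in DMSO+AB, and 5.66, 6.71 and 5.62 in Hispidulin+AB. DMSO+Sham mouse 3 was the lowest, and the other 5 Sham mice lay at 6.21 or above while 5 of the 6 AB mice lay below that. DMSO+Sham mouse 3 thus had the highest Per1 together with the lowest Per2 and Per3. On the log2(FPKM + 1) scale Pearson's r between Per1 and Per2 was 0.24 over the 12 mice and 0.63 without that mouse, and between Per1 and Per3 -0.05 and 0.34.

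Of the REV-ERB receptors, Nr1d1 was at 44.5, 41.9 and 35.2 FPKM in DMSO+Sham, 56.3, 23.9 and 49.6 in Hispidulin+Sham, 51.9, 43.8 and 58.5 in DMSO+AB, and 42.8, 58.0 and 43.6 in Hispidulin+AB. Its lowest value was in Hispidulin+Sham mouse 2, which also had the lowest Arntl. Nr1d2 was at 35.8, 30.1 and 22.8 FPKM in DMSO+Sham, 30.8, 32.7 and 43.7 in Hispidulin+Sham, 25.9, 24.4 and 15.5 in DMSO+AB, and 30.5, 31.6 and 26.9 in Hispidulin+AB. All 3 DMSO+AB mice lay below all 3 Hispidulin+AB mice, the nearest being 25.9 and 26.9 FPKM.

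By group mean, the PAR bZIP factors Dbp and Tef were the most abundant of the members in all 4 groups, though not in every mouse. Dbp was at 72.6, 93.0 and 17.6 FPKM in DMSO+Sham, 88.5, 72.9 and 68.1 in Hispidulin+Sham, 42.1, 63.2 and 95.2 in DMSO+AB, and 61.3, 71.5 and 43.1 in Hispidulin+AB. The median of the other 11 mice was 4.06 times the level in DMSO+Sham mouse 3, and the 4 groups overlapped. Tef was at 88.4, 68.6 and 43.8 FPKM in DMSO+Sham, 81.5, 92.0 and 80.1 in Hispidulin+Sham, 50.8, 45.9 and 62.0 in DMSO+AB, and 59.7, 66.8 and 60.8 in Hispidulin+AB. Without DMSO+Sham mouse 3, every Sham mouse lay above every AB mouse for Tef, with 68.6 FPKM as the lowest Sham value and 66.8 as the highest AB value.

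Among the tested genes, Arntl and Dbp were among the most variable. The SD of log2(FPKM + 1) over the 12 mice was 0.65 for Arntl and 0.66 for Dbp, above 97.5% and 97.6% of the tested genes, whose median SD was 0.19. Without DMSO+Sham mouse 3 the SD was 0.33 for Arntl and 0.39 for Dbp, above 87.6% and 92.4% of genes. Clock and Per1 varied like most genes, with an SD of 0.21 each over the 12 mice. The values of Arntl and Dbp fell on opposite sides, as the plot of Arntl against Dbp shows. Pearson's r between them, on the same log2 scale, was -0.89 over 12 mice (Spearman's rho -0.85), -0.62 over the other 11 (rho -0.81) and -0.56 without DMSO+Sham mice 2 and 3 (rho -0.82). Clock followed Arntl (r 0.74 over 12 mice, 0.55 over 11). Some other pairs with Arntl changed with DMSO+Sham mouse 3. For Npas2 r was 0.67 over 12 mice and -0.14 over 11 (rho 0.16 and -0.09), and for Nr1d1 -0.01 and 0.56 (rho -0.03 and 0.16). For Per1 it was 0.26 and -0.23, for Per2 -0.60 and -0.24, and for Nr1d2 -0.31 and -0.15. For Tef it stayed near, at -0.68 and -0.58. Per3 followed Tef most closely of all pairs named here (r 0.93 over 12 mice and over 11). Per3 also ran opposite to Arntl, at r -0.82 over 12 mice and -0.63 over 11. Points of these correlations share a library and its scaling, and they are given as a description.

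**Figure D2:**
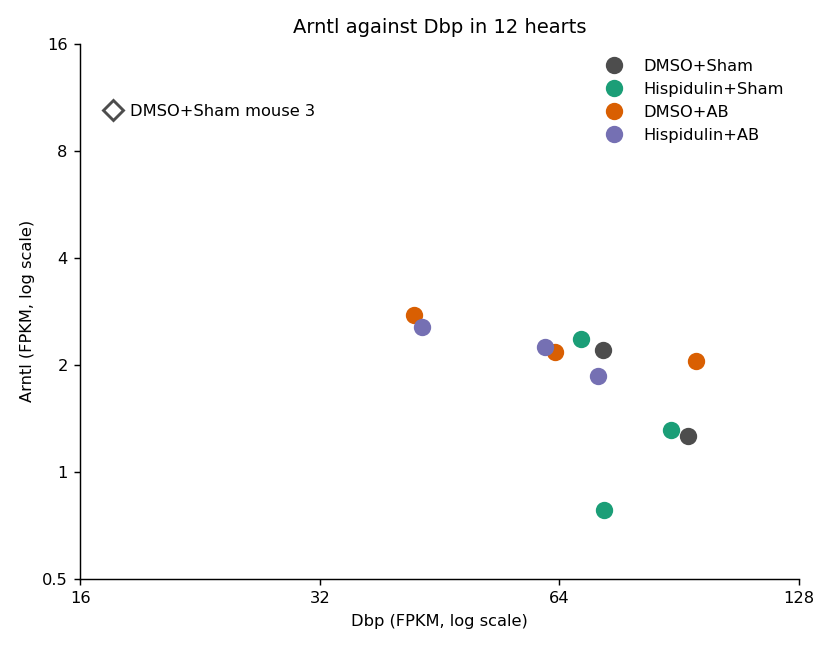
Arntl against Dbp in FPKM, both on log scales, with 1 point per mouse coloured by group. DMSO+Sham mouse 3 (open diamond) has the highest Arntl, 10.4 FPKM, and the lowest Dbp, 17.6 FPKM, and the other 11 mice lie at 0.78 to 2.76 FPKM of Arntl and 42.1 to 95.2 FPKM of Dbp.

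To place the hearts on the Arntl and Dbp axis, log2(FPKM + 1) of Dbp was subtracted from log2(FPKM + 1) of Arntl in each mouse. This difference was -4.52, -5.38 and -0.70 in the DMSO+Sham mice, -5.28, -5.38 and -4.36 in the Hispidulin+Sham mice, -3.52, -4.34 and -4.98 in the DMSO+AB mice, and -4.26, -4.66 and -3.63 in the Hispidulin+AB mice. As a ratio of FPKM with nothing added, Dbp was 1.69 times Arntl in DMSO+Sham mouse 3 and 15.2 to 93.5 times Arntl in the others. The group means were -3.54 ± 2.49 (SD, n = 3) in DMSO+Sham, -5.00 ± 0.56 in Hispidulin+Sham, -4.28 ± 0.73 in DMSO+AB, with -4.19 ± 0.52 in Hispidulin+AB (n = 3 each). The ranges of all 4 groups overlapped. The DMSO+Sham mean without mouse 3 was -4.95 ± 0.60 (n = 2), next to that of Hispidulin+Sham. The sample codes in the labels hold numbers, read here as animal numbers, that fall into a series beginning with 67 (6 mice), one beginning with 52 (5 mice) and 1 other mouse. The codes do not say what these series stand for. The 5 mice of series 67 other than DMSO+Sham mouse 3 lay at -4.66 to -3.52 and the 5 mice of series 52 at -5.38 to -3.63, and both series held mice of every group. Because the hour of collection is not given, a difference in collection time and a difference between hearts cannot be told apart here.

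**Figure D3:**
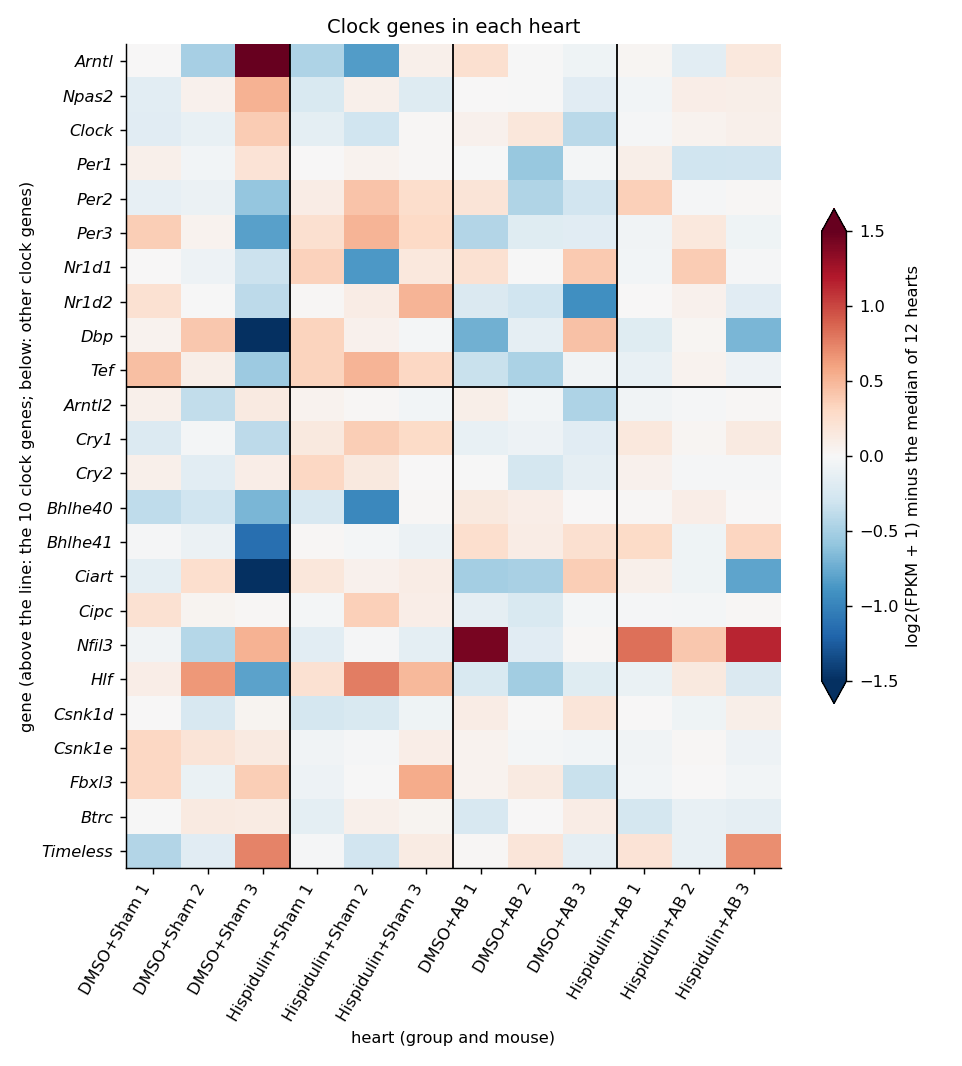
log2(FPKM + 1) minus the median of the 12 hearts (colour) for the 10 clock genes and other clock genes that passed the filter (rows) in each mouse (columns, ordered by group), with the colours ending at 1.5 on either side. The DMSO+Sham 3 column is red for Arntl and blue for Per3, Dbp, Bhlhe41, Ciart and Hlf.

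AB in DMSO-treated mice was compared first. None of the 9 members passed an adjusted p under 0.05 in limma, where 5.21% of the tested genes (608) did. Nr1d2 was estimated at -0.42 ± 0.21 (SE) on the log2(FPKM + 1) scale, and at -0.20 ± 0.19 without DMSO+AB mouse 3, which held its lowest value. Nr1d1 and Dbp were estimated at 0.33 ± 0.26 and 0.35 ± 0.49, and at 0.24 ± 0.30 and 0.06 ± 0.54 without that mouse. Over the members 3 estimates were above and 6 below 0, with a median of -0.13, and 55.8% of all tested genes were below 0. None of the 9 members separated DMSO+AB from DMSO+Sham without overlap, as 17.9% of the tested genes did. Several of these estimates changed when DMSO+Sham mouse 3 was left out. Arntl turned from -0.39 to 0.30, Dbp turned from 0.35 to -0.37, Per3 moved from -0.13 to -0.48, Nr1d2 from -0.42 to -0.59 and Tef from -0.29 to -0.56, and still none of the 9 members passed, against 4.24% of all genes. Within series 67, which holds 2 DMSO+AB mice and no DMSO+Sham mouse but mouse 3, Arntl was lower by 1.72 and Dbp higher by 1.5 on the log2 scale after AB, and in series 52 (1 mouse against 1) Arntl differed by 0.43 and Dbp by 0.03.

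The effect of hispidulin in Sham hearts also changed with DMSO+Sham mouse 3. In Hispidulin+Sham against DMSO+Sham, Arntl was estimated at -0.86 ± 0.46, Dbp at 0.61 ± 0.49, Per2 at 0.53 ± 0.19, Per3 at 0.48 ± 0.24 and Tef at 0.39 ± 0.20, and Clock, Per1 and Nr1d1 lay between -0.17 and 0.01. None of the members passed, and 0% of all genes did. Of the 9 estimates 3 were below 0, beside 52.3% of all genes. When DMSO+Sham mouse 3 was left out the estimates were -0.16 ± 0.24 for Arntl, -0.11 ± 0.29 for Dbp, 0.14 ± 0.15 for Per3 and 0.11 ± 0.14 for Tef, whereas Per2 stayed at 0.38 ± 0.19. Per2 was the only one of the 9 members whose groups did not overlap, where 2.77% of the tested genes were higher and 5.6% separated in either direction.

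In banded hearts, Hispidulin+AB against DMSO+AB, in which DMSO+Sham mouse 3 takes part only through the shared spread, none of the members passed and again 0% of all genes did. Without DMSO+AB mouse 1, 20 genes passed, and 2 passed without a filter on low values. Of the 9 estimates 3 were below 0, beside 48.6% over all genes. Nr1d2 was estimated at 0.45 ± 0.21, Per2 at 0.30 ± 0.19, Per3 at 0.27 ± 0.24 and Tef at 0.24 ± 0.20, and Arntl, Clock, Per1, Nr1d1 and Dbp lay between -0.14 and 0.09. Without DMSO+AB mouse 3 the estimates were 0.23 ± 0.19 for Nr1d2, 0.25 ± 0.21 for Per2, 0.32 ± 0.28 for Per3 and 0.36 ± 0.22 for Tef. Per3 and Nr1d2 were higher in all 3 Hispidulin+AB mice than in all 3 DMSO+AB mice, 2 of 9 members, where 4.23% of the tested genes were higher and 7.88% separated in either direction. Within series 67 (2 mice against 2) Per3 differed by 0.36 and Nr1d2 by 0.30, and within series 52 (1 against 1) the differences were 0.10 and 0.76.

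The effect of AB under hispidulin was read from Hispidulin+AB and Hispidulin+Sham. None of the members passed, and neither did any other gene (0%), although 49 genes passed with only the libraries compared and 209 with library weights. Of the 9 estimates 6 were below 0, beside 54.9% over all genes. Tef was estimated at -0.43 ± 0.20, Per3 at -0.34 ± 0.24, Dbp at -0.40 ± 0.49 and Arntl at 0.42 ± 0.46. Per3 and Tef were lower in all 3 Hispidulin+AB mice, 2 of 9 members, where 11.8% of the tested genes were lower and 20.9% separated in either direction. With the replicate number as a block, 17 of all genes passed (0.146%) and none was a member. For the interaction of hispidulin and AB, 0 members and 0% of all genes passed, and 5 of the 9 estimates were below 0, beside 46.6% over all genes. Its estimate for Arntl fell from 0.81 ± 0.64 to 0.12 ± 0.33 without DMSO+Sham mouse 3.

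The comparison of all AB with all Sham hearts over both treatments, added after the values had been seen, used 6 mice against 6. With all mice, Arntl and Dbp were estimated at 0.01 ± 0.32 and -0.03 ± 0.35, Tef at -0.36 ± 0.14, Nr1d2 at -0.34 ± 0.15, Per3 at -0.24 ± 0.17, Per1 at -0.24 ± 0.11, Per2 at -0.03 ± 0.13, Clock at 0.05 ± 0.12 and Nr1d1 at 0.28 ± 0.18. None of the 9 members passed, against 7.39% of all tested genes. No member separated the 6 Sham from the 6 AB mice, as 4.96% of all genes did. With the 11 mice other than DMSO+Sham mouse 3, Arntl was estimated at 0.36 ± 0.16, Dbp at -0.39 ± 0.20, Nr1d2 at -0.42 ± 0.14, Per3 at -0.41 ± 0.10 and Tef at -0.50 ± 0.10. That mouse was singled out by its clock values, so these estimates, and the 2 of 9 members (Per3 and Tef) that came under the threshold beside 9.63% of all genes, are no test of the members. Tef alone then separated the 5 Sham from the 6 AB mice, where 4.58% of all genes were lower and 8.32% separated in either direction. The medians of these 5 and 6 mice were 81.5 and 60.3 FPKM for Tef, 7.52 and 5.40 for Per3, 72.9 and 62.3 for Dbp, and 1.31 and 2.22 for Arntl. These comparisons share control mice with those above and are not a repeat of them.

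**Figure D4:**
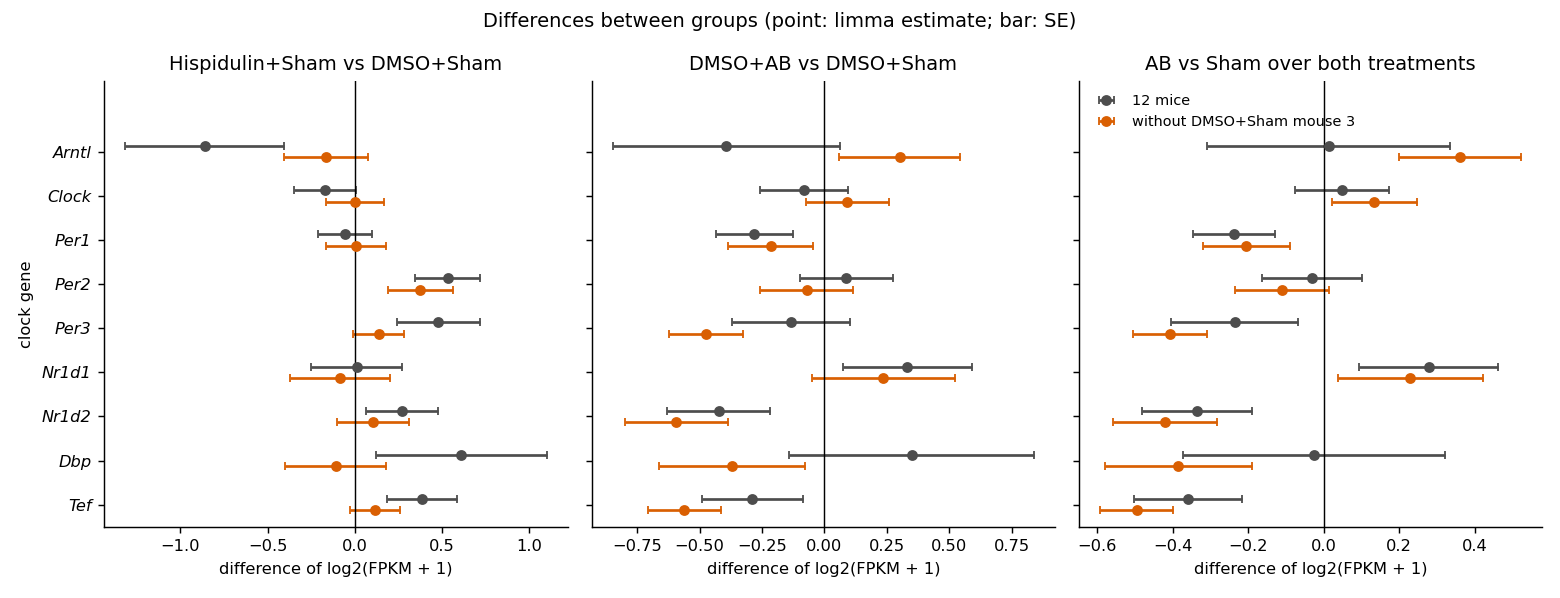
Difference of log2(FPKM + 1) between groups (horizontal axes, limma estimate with SE bars) for the 9 clock genes that passed the filter (vertical axis), with 12 mice (grey) and without DMSO+Sham mouse 3 (orange). Arntl and Dbp change sign in the middle panel, from -0.39 to 0.30 and from 0.35 to -0.37, while Tef and Nr1d2 stay below 0 in the middle and right panels.

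The remaining genes of the clock loop were taken from a list of 18, of which 16 passed the filter. In limma 0 of the 16 passed in each of the 5 comparisons between groups. At an unadjusted p under 0.05 there were 3 of 16 in DMSO+AB against DMSO+Sham, beside 20.4% of all genes, and 2 in Hispidulin+Sham against DMSO+Sham, beside 2.46%. There was 1 under AB with hispidulin, beside 7.26%, and 0 in banded hearts with and without hispidulin and in the interaction, beside 3.1% and 2.48%. Their median log2 difference after AB in DMSO-treated mice was -0.10, with 10 of 16 below 0, beside 55.8% of all genes. Cry1, a repressor that partners the Period proteins, was at 5.14, 5.92 and 4.36 FPKM in DMSO+Sham, 6.79, 8.14 and 7.59 in Hispidulin+Sham, 5.51, 5.67 and 5.27 in DMSO+AB, and 6.84, 6.19 and 6.72 in Hispidulin+AB. Both hispidulin groups lay above the DMSO groups beside them without overlap, which 2.77% of all genes did in the Sham mice and 4.23% in the AB mice. Over the list, named after their values were seen, 2 of 16 separated in the Sham mice (Cry1 higher and Csnk1e lower with hispidulin, beside 5.6% in either direction) and 2 of 16 in the AB mice (Cry1 and Cipc, both higher, beside 7.88%). The log2 difference of Cry1 in Hispidulin+Sham against DMSO+Sham was 0.48 ± 0.11, with an unadjusted p of 0.00131 and an adjusted p of 1.00 in limma over all genes. Cry2 was between 11.8 and 17.98 FPKM in all mice.

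Over both treatments, 0 of the 16 passed with 12 mice, beside 7.39% of all genes, 5 had an unadjusted p under 0.05, beside 23.3%, and Bhlhe40, an E-box repressor, was nearest at 0.49 ± 0.14 (limma adjusted p 0.0585). Hlf, the third PAR bZIP factor, differed by -0.42 ± 0.20 with all 12 mice (limma adjusted p 0.242). With DMSO+Sham mouse 3, which held its lowest value, left out, its difference was -0.62 ± 0.14, given as a description because that mouse was singled out by its clock values. Hlf was at 6.91, 10.6 and 3.24 FPKM in DMSO+Sham, 7.65, 11.6 and 9.33 in Hispidulin+Sham, 5.32, 4.16 and 5.53 in DMSO+AB, and 5.89, 7.17 and 5.34 in Hispidulin+AB. The 5 other Sham mice overlapped the AB mice only between 6.91 and 7.17 FPKM. Nfil3, which binds the same D-boxes as a repressor, was at 8.55, 6.39 and 13.2 FPKM in DMSO+Sham, 7.87, 8.78 and 7.95 in Hispidulin+Sham, 25.7, 7.82 and 9.03 in DMSO+AB, and 16.5, 12.1 and 20.9 in Hispidulin+AB. All 3 Hispidulin+AB mice were above all 3 Hispidulin+Sham mice, and its difference over both treatments was 0.65 ± 0.26 (limma adjusted p 0.151).

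Of the 16 other clock genes, DMSO+Sham mouse 3 was the highest or lowest mouse for 7 and DMSO+AB mouse 3 for 5, beside 35.4% and 37.4% of all genes, so these counts set neither mouse apart for the list. Ciart was at 9.21, 12.5 and 2.64 FPKM in DMSO+Sham, 11.7, 10.8 and 11.2 in Hispidulin+Sham, 6.97, 7.07 and 13.6 in DMSO+AB, and 10.96, 9.81 and 5.54 in Hispidulin+AB. Bhlhe41, a relative of Bhlhe40, was at 2.73 FPKM in DMSO+Sham mouse 3 and at 6.70 to 9.23 in the others.

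Genes that were not members were then correlated with the same Arntl minus Dbp difference, over 44 genes from the clock, clock output, glucocorticoid-responsive and heat-shock lists. The measure correlated against was chosen with its values known, and DMSO+Sham mouse 3 lay far from the others on it, so the correlations describe these hearts and carry no claim beyond them. With 12 mice 4 of the 44 passed after Benjamini-Hochberg adjustment over the 44 (permutation tests with 100000 resamples, two-sided). As deviations from the group means 0 passed and 9 had an unadjusted permutation p under 0.05, and the same counts held with the replicate block. Those 2 tests shuffled mice only inside groups of 3. The few arrangements leave little room under the adjusted threshold, so nothing is read from the absence of calls there. By Spearman's rho over the same 12 mice 10 of the 44 passed, namely these 4 and Fkbp5, Mt2, Hspa1a, Hspa1b, Hsp90aa1 and Hspb1. Ciart ran opposite to the difference (r -0.93, permutation p 0.00019, adjusted p 0.00836, rho -0.78), as did Hlf (r -0.76, permutation p 0.00137, adjusted p 0.0201, rho -0.83). Timeless, a partner of the replication fork that carries its name from the fly clock, ran with it (r 0.76, permutation p 0.00234, adjusted p 0.0257, rho 0.80), as did Cdkn1a, which encodes the cell cycle inhibitor p21 (r 0.85, permutation p 0.00083, adjusted p 0.0183, rho 0.76). When DMSO+Sham mice 2 and 3, the farthest from the median, were left out, r was -0.77 for Ciart, -0.59 for Hlf, 0.62 for Timeless and 0.65 for Cdkn1a, and of these Ciart alone kept an adjusted p under 0.05 (permutation p 0.00886, adjusted p 0.0440). The calls of Hlf, Timeless and Cdkn1a were also lost with DMSO+Sham mouse 3 alone left out, those of Hlf and Timeless without Hispidulin+Sham mouse 2, that of Hlf without DMSO+Sham mouse 2 and that of Timeless without Hispidulin+AB mouse 3. Within the 6 mice of series 67 r was -0.94 for Ciart, -0.72 for Hlf, 0.89 for Timeless and 0.90 for Cdkn1a, with a smallest adjusted p of 0.244 among the 44 (exact permutation test). With 6 mice that test cannot give a p under 0.00139, which leaves little room under the adjusted threshold, so nothing is read from the absence of calls there. Correlations were computed over 6 or more mice, so none was computed for series 52, which has 5. Taken as deviations from the group means, r was -0.91 for Ciart.

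Of the 9 glucocorticoid-responsive genes, which follow a hormone with a daily rhythm of its own, DMSO+Sham mouse 3 was highest for 4, Cdkn1a, Fkbp5, Mt1 and Mt2, as it was for 2568 of all 11664 tested genes. Counted from the highest mouse it ranked 2 for Zbtb16, 4 for Klf9 and Errfi1, 7 for Tsc22d3 and 8 for Sgk1. Cdkn1a was at 178 FPKM there and at 34.5 to 102 in the other 11 mice, and Fkbp5, which encodes a co-chaperone of the glucocorticoid receptor, was at 72.8 against 17.3 to 47.9. The metallothionein genes Mt1 and Mt2 were at 2792 and 1368 FPKM, against 394 to 1224 and 55.1 to 574. By r over 12 mice Mt1 (0.80, permutation p 0.00737, adjusted p 0.0649), Mt2 (0.76, permutation p 0.0108, adjusted p 0.0792) and Fkbp5 (0.74, permutation p 0.0191, adjusted p 0.120) did not pass, and by rank Mt2 (rho 0.83, permutation adjusted p 0.0136) and Fkbp5 (rho 0.76, permutation adjusted p 0.0271) did.

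Heat-shock genes behaved differently with and without DMSO+Sham mouse 3. With 12 mice 0 of the 7 passed by r, which was 0.55 for Hspa1a and 0.53 for Hspa1b, the inducible HSP70 genes, 0.52 for Hsp90aa1 and 0.45 for Hspb1. By rank 4 of the 7 passed in the same 12 mice, with Spearman's rho at 0.87 for Hsp90aa1, 0.85 for Hspa1a, 0.84 for Hspa1b (each with a permutation adjusted p of 0.0136) and 0.78 for Hspb1 (permutation adjusted p 0.0250). Over the other 11 mice r was 0.92 for Hsp90aa1, 0.87 for Hsph1, 0.85 for Hspa1a, 0.84 for Hspa1b and 0.82 for Hspb1, and it was 0.81 for Nfil3 and -0.80 for Ciart. These values are a description, since the mouse left out was the outlying one on the measure itself. Within series 67, DMSO+Sham mouse 3 included, r for Hsp90aa1 was -0.14 (exact permutation p 0.804). Hsp90aa1, a cytosolic HSP90, was at 105, 59.1 and 140 FPKM in DMSO+Sham, 97.2, 59.9 and 158 in Hispidulin+Sham, 217, 191 and 69.8 in DMSO+AB, and 176, 120 and 222 in Hispidulin+AB. Hspa1b was at 3.76, 2.12 and 55.2 FPKM in DMSO+Sham, 10.96, 1.5 and 9.26 in Hispidulin+Sham, 261, 39.4 and 24.8 in DMSO+AB, and 148, 26.8 and 285 in Hispidulin+AB. Hspa1b and Hspb1 also passed between AB and Sham over both treatments, Hspa1a did so without DMSO+Sham mouse 3, and all 7 had a difference above 0. Hsp90aa1 did not pass in that comparison (0.67 ± 0.33, limma adjusted p 0.243). The correlations over all mice thus mix a relation with the Arntl minus Dbp difference and one with AB. As deviations from the group means, 4 of the 7 had an unadjusted permutation p under 0.05 and 0 passed after adjustment. The part of AB in these correlations was not tested.

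**Figure D5:**
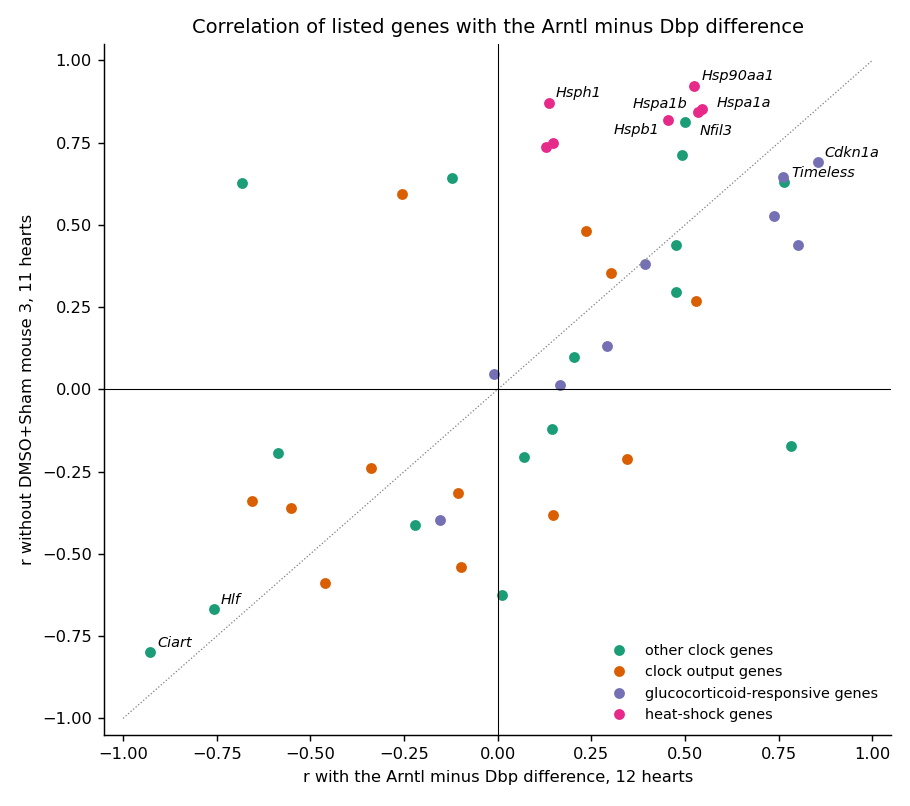
Pearson's r of 44 genes with the Arntl minus Dbp difference over 12 hearts (horizontal axis) and over 11 hearts without DMSO+Sham mouse 3 (vertical axis), coloured by list, with the names of genes whose adjusted p was under 0.05 on either axis. Ciart keeps a strong negative r in both, -0.93 and -0.80, and the heat-shock genes lie at 0.13 to 0.55 over 12 hearts and at 0.74 to 0.92 over 11.

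Among the gene lists, known outputs of the heart clock gave the only calls in the 5 comparisons between groups with all 12 mice. Of 12 such genes, 3 were lower in DMSO+AB than in DMSO+Sham, against 5.21% of all genes called, 9 of the 12 had a difference below 0, and the median was -0.30. Nampt, which encodes the enzyme that salvages nicotinamide for NAD, was at 79.4, 65.1 and 97.4 FPKM in DMSO+Sham and 42.2, 35.6 and 21.2 in DMSO+AB, and fell by 1.3 ± 0.21 on the log2 scale (limma adjusted p 0.0106, range over its 17 alternatives 0.00205 to 0.121). Kcnip2, which encodes the KChIP2 subunit of the transient outward potassium channel, was at 135, 125 and 107 FPKM against 76.9, 52.8 and 68.6, and fell by 0.89 ± 0.15 (limma adjusted p 0.0111, range 0.00234 to 0.111). Klf15, a transcription factor of the heart clock's output, was at 60.6, 43.2 and 58.9 FPKM against 33.1, 26.5 and 37.6, and fell by 0.72 ± 0.16 (limma adjusted p 0.0278, range 0.00451 to 0.170). The groups of these 3 of the 12 genes did not overlap, beside 17.9% of all genes. The cardiomyocyte markers Myh6, Tnnt2 and Ryr2 summed to 10326 to 12210 FPKM in DMSO+Sham and to 8314 to 10203 in DMSO+AB. The ventricular markers Myl2 and Myl3, also of cardiomyocytes, overlapped, at 17780 to 25275 and 20750 to 23013. The smooth muscle markers Myh11 and Tagln were higher in DMSO+AB, at 21.44 to 28.68 and 29.47 to 32.45. The fibroblast markers Col1a1, Pdgfra and Dcn summed to 290.2 to 370 and to 292 to 552. No marker of these lists was at 0, and their part in the result was not tested. Leaving out DMSO+Sham mouse 3, Nampt (-1.15 ± 0.22) and Kcnip2 (-0.98 ± 0.16) still passed, Klf15 did not (-0.66 ± 0.18, limma adjusted p 0.0637) and Ucp3, a mitochondrial uncoupling protein gene, did (-1.29 ± 0.29, limma adjusted p 0.0334). Without DMSO+Sham mouse 1, only Nampt passed. Nampt, Kcnip2 and Klf15 were also called over both treatments, at -0.85 ± 0.15, -0.64 ± 0.11 and -0.55 ± 0.11, and without DMSO+Sham mouse 3 at -0.78 ± 0.15, -0.69 ± 0.11 and -0.52 ± 0.12. None of the 12 output genes correlated with the Arntl minus Dbp difference after adjustment over all 12 mice, with Wee1 (r -0.65, permutation p 0.0254, adjusted p 0.140) and Ucp3 (r -0.55, permutation p 0.0546, adjusted p 0.202) nearest. Coq10b, a coenzyme Q gene named after its values were seen, came under the threshold without DMSO+Sham mice 2 and 3, with an r of 0.80 there against -0.26 over all 12. Of the 9 glucocorticoid-responsive and 7 heat-shock genes, 0 passed in DMSO+AB against DMSO+Sham, and 1 and 3 had an unadjusted p under 0.05. Hspb1, a small heat-shock protein gene, passed there without DMSO+Sham mouse 3 (1.4 ± 0.35, limma adjusted p 0.0459, range 0.0124 to 0.218). Over both treatments 0 of the 9 and 2 of the 7 passed, beside 7.39% of all genes, Hspa1b at 3.38 ± 0.85 and Hspb1 at 1.02 ± 0.25. With that mouse left out the counts were 2 and 3, beside 9.63% of all genes, with Cdkn1a at 0.76 ± 0.16, Mt2, a metallothionein, at 1.37 ± 0.36 and Hspa1a at 3.68 ± 0.73 added.

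The genes whose pattern over the 12 mice was most like the Arntl minus Dbp difference, among 11590 tested genes outside all the lists, were Itgam, which encodes the CD11b integrin of myeloid cells (r 0.96), Lilrb4a, Irf5, St3gal1 and Igsf6 (r 0.95 for the last). The most opposed were Zfp428 (r -0.96), Qrsl1, Calm3, Mrpl45 and Ptprs (r -0.94 for the last). All 10 followed DMSO+Sham mouse 3, where Itgam was at 18.2 FPKM against 1.26 to 3.41 in the other mice and Lilrb4a at 15.7 against 1.54 to 5.38. Over the other 11 mice their r with the difference was 0.84 for Itgam, 0.89 for Lilrb4a, -0.80 for Zfp428 and -0.85 for Calm3. Of the macrophage markers, Adgre1 alone was at 11.1 FPKM in DMSO+Sham mouse 3 against 2.71 to 5.65. By group the macrophage sum ran from 19.8 to 34.1 FPKM in DMSO+Sham, 20.1 to 26.0 in Hispidulin+Sham, 21.8 to 28.8 in DMSO+AB, with 21.4 to 28.8 in Hispidulin+AB, and none of the 3 markers was at 0 in a mouse. Their part in these correlations was not tested.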

How the data were processed

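Left ventricular RNA of 12 mice (C57BL/6 in the labels), 3 in each of 4 groups, was analysed from the deposited FPKM. The authors computed these FPKM from single-end reads of 50 bases on a BGISEQ-500. The submitters' processing notes list HISAT2 2.0.4, Bowtie2 2.2.5 and RSEM 1.2.12 without roles. The genome build is not given in the sources used here. Read counts were not used here, and steps between low FPKM did not allow them to be recovered (of 18615 ratios of neighbouring steps 18.5% came within 0.1 of whole, where an even spread gives 20%). Symbols were found for 17947 of 18079 genes (99.3%) from RefSeq.

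Differences were estimated with limma 3.58.1 (R 4.3.3) on log2(FPKM + 1), a scale that understates changes of low genes, for the 11664 genes that reached 1 FPKM in 3 or more libraries. All 12 libraries entered 1 model with a mean for each group (eBayes with trend, two-sided), and Benjamini-Hochberg adjustment covered all tested genes. Correlations used Python 3.11.15 and scipy 1.17.1. Both were tested on simulated data. The members and lists were chosen with earlier results of these data known.

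All 10 members are named. Of the other clock genes, those that passed a test and Cry1, Cry2, Bhlhe41, Ciart, Nfil3 and Hlf are named (1 further gene of that rule is not reported here), of the other lists up to 4 by correlation p and all that passed in a contrast, and of all remaining genes the 5 highest and 5 lowest by r. Bhlhe40 and the comparison over both treatments were chosen after the values had been seen. Replicate numbers come from the labels and belong to different animals. Residuals of same-numbered libraries correlated by 0.126 to 0.330 between Hispidulin+Sham and DMSO+Sham, and by 0.147 to 0.228 between Hispidulin+AB and Hispidulin+Sham, where every pair was above 0.1, by -0.198 to -0.0239 in DMSO+AB against DMSO+Sham, and by -0.183 to 0.300 in Hispidulin+AB against DMSO+AB. Alternatives were 0.1 added in place of 1, other filters, scalings and weights, covariates, the replicate block and each mouse left out in turn. Promoter sequences are from RefSeq (GRCm38.p6) and exon positions from GENCODE.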

Additional observations from a re-analysis of the deposited data

How the results depend on the processing

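Of 469 counts recomputed under alternatives for 25 counts of called genes, 432 stayed within 1.5 times. Most of the 25 were 0, and counts that stayed at 0 are among the 432, so the share says little of stability. Counts over all genes are not among the 469. Over the members' log2 differences 980 of 996 moved by less than the spread between mice and 71 changed sign. The count of other clock genes stayed at 0 of 16 in the 5 planned comparisons under all alternatives run. Over both treatments, an alternative chosen after seeing the data, it went from 0 to 4 with library weights, 3 with the Arntl minus Dbp difference as a covariate and 0 to 1 with a mouse left out (Hlf without DMSO+Sham mouse 3, Bhlhe40 without Hispidulin+Sham mouse 3). Clock output genes called in DMSO+AB against DMSO+Sham went from 3 to 6 with library weights, 1 with the animal series as a covariate, 0 with only the libraries compared, and 1 to 3 with a mouse left out; over both treatments they were 9 with library weights and 2 to 4 with a mouse left out. Glucocorticoid genes went from 0 to 1 with weights and 0 to 1 with a mouse left out in DMSO+AB against DMSO+Sham, and to 2 with weights and 0 to 2 with a mouse left out over both treatments. Heat-shock genes in DMSO+AB against DMSO+Sham went from 0 to 3 with the Arntl minus Dbp covariate and 0 to 1 with a mouse left out, in Hispidulin+AB against Hispidulin+Sham to 2 with weights, and over both treatments from 2 to 5 with weights, 0 without a filter or with the series covariate, and 0 to 3 with a mouse left out. Genes correlated with the Arntl minus Dbp difference went from 4 to 9 without the 2 farthest mice, and to 2 (without Hispidulin+Sham mouse 2) to 7 (without DMSO+Sham mouse 3) with a mouse left out. The count was 0 as deviations from group means, where shuffling only inside groups of 3 left little room for a call. Within series 67 the count was 0 (6 mice, too few to say anything of stability), and by Spearman's rho it was 10. With the replicate block 1 heat-shock gene passed in DMSO+AB against DMSO+Sham (0 without it), 3 passed over both treatments (2 without it) and 0 genes were correlated, and the block changed no other count on the lists. All genes called in DMSO+AB against DMSO+Sham numbered 608, 383 without a filter, 1423 with weights, 142 with the series covariate, 11 with only the libraries compared, and 91 to 1053 with a mouse left out. In Hispidulin+AB against Hispidulin+Sham it was 0, but 49 with only the libraries compared, 209 with weights and 17 with the replicate block. It was also 2 without a filter, 2 with median-of-ratios scaling, 3 with quantile normalization, 4 with the Arntl minus Dbp covariate and 3 without Hispidulin+AB mouse 2. In Hispidulin+AB against DMSO+AB it was 0, but 20 without DMSO+AB mouse 1 and 2 without a filter, and in the interaction 0, but 3 without DMSO+AB mouse 1. The count over both treatments was 862, 2535 with weights, 1357 with the Arntl minus Dbp covariate, 547 with the series covariate and 376 to 1220 with a mouse left out. The causes of these shifts were not tested. FPKM carry no depth, and 3 mice a group limit every comparison.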
